A study of Mus musculus with 4 samples.

Results

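The 10 macrophage chemokine genes Ccl2, Ccl3, Ccl4, Ccl6, Ccl7, Ccl8, Ccl9, Ccl12, Ccl24 and Pf4 were examined in RNA sequencing of cultured mouse macrophages. They were taken by symbol from a table of 34745 genes, and 9 of the 10 had enough counts to be tested among 12418 genes. Bone marrow-derived macrophages (BMDMs) of 2 genotypes were compared. The WT libraries came from mice whose G3bp1 gene was floxed (G3bp1 f/f), as the study's text gives it. The KO libraries (G3bp1mac-/-) came from floxed mice that also carried Cre recombinase under the Lyz2 promoter. Lyz2-Cre is active in monocytes and granulocytes as well as in macrophages. Both genotypes carried the floxed allele, no control for Cre alone was among the libraries, and all cells were grown in DMEM with serum. The labels name no treatment, and the age and sex of the donor mice were not given in the sources used here. Each genotype had 2 libraries, numbered 1 and 2. Nothing says whether they came from separate animals or cultures, so p-values measure only the spread between these libraries, which may be technical.

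Chemokines are small secreted proteins that bind G protein-coupled receptors on leukocytes and direct their migration along a concentration gradient. Macrophages secrete many of them, and several are classic early response genes whose transcription rises within hours of an inflammatory stimulus through NF-kB and related factors. The 10 genes fall into groups by the cells they attract. Ccl2, Ccl7, Ccl8 and Ccl12 encode the monocyte chemoattractant proteins, of which Ccl2, Ccl7 and Ccl12 act on monocytes through CCR2. Ccl3 and Ccl4 encode the macrophage inflammatory proteins 1 alpha and beta, which attract monocytes and T cells. Ccl6 and Ccl9 are a pair of related rodent chemokines that act through CCR1. Ccl24 is eotaxin-2, a ligand of CCR3 on eosinophils. Pf4 is platelet factor 4, a CXC chemokine stored in platelet granules and also transcribed in macrophages.

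Total counts ran from 16724241 to 19747909 per library. Levels are in CPM (counts scaled by TMM to 1 common library size), and where a library has a count of 0 a gene may still reach 3 counts, or 0.152 to 0.188 CPM by library, as counting error alone allows. In a principal component analysis the first component, with 56.0% of the variance, separated the libraries numbered 1 from those numbered 2, and the second, with 34.9%, separated the genotypes. For this reason every chemokine is also compared between KO and WT inside each number, with 1 library per genotype and no error between replicates. The targeted gene G3bp1 gave counts of 1691 and 2875 for WT and of 1307 and 2296 for KO. Its log2 fold change was -0.61 (SE 0.40, edgeR's quasi-likelihood test, adjusted p 0.904), and counts over a whole gene do not show the loss of single exons, so this gene does not check the labels. The macrophage markers, among them Lyz2, Cd68 and Adgre1, summed to between 21843 and 27640 CPM in every library, most of it Lyz2. Of these 12 markers, 4 lay lower in both KO libraries (Cd68, C1qa, C1qb and C1qc, log2 fold changes -0.64 to -0.18), against 16.9% of all tested genes. In both KO libraries 1 marker, Itgam, lay higher (0.82), against 20% of all tested genes.

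Ccl6 and Ccl9 had the most counts of the chemokines when the 4 libraries were added up, and they lie close together on chromosome 11. Ccl6 (ENSMUSG00000018927) spans 83587882 to 83593087 and Ccl9 (ENSMUSG00000019122) spans 83572919 to 83578636 of the GRCm38 mouse genome, both on the minus strand and both with 4 exons in their main transcript. The promoters of the 2 genes are shown side by side, followed by that of Ccl3, which is described further on. Each is the RefSeq sequence of GRCm38.p6 from 250 bases before to 50 bases after the annotated start of the gene, on the strand of the gene. Capitals mark every match, on either strand, to 6 motifs: NF-kB, AP-1 (TGANTCA), C/EBP (TTNNGNAA), PU.1 (GAGGAA), interferon regulatory factors (GAAANNGAA) and the TATA box (TATAAA).
Ccl9, chr11:83578587-83578886: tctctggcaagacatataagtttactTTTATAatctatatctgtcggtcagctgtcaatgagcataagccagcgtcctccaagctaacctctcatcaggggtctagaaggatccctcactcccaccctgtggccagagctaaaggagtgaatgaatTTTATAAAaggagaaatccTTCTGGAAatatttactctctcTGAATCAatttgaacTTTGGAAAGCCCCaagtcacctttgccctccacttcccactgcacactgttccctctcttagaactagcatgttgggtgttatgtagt
Ccl6, chr11:83593038-83593337: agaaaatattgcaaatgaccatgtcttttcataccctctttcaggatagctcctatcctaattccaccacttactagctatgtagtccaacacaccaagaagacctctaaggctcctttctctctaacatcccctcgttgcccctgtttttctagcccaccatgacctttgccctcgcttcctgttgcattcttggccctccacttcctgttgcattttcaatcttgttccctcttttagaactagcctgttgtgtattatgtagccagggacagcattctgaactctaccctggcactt
Ccl3, chr11:83649329-83649628: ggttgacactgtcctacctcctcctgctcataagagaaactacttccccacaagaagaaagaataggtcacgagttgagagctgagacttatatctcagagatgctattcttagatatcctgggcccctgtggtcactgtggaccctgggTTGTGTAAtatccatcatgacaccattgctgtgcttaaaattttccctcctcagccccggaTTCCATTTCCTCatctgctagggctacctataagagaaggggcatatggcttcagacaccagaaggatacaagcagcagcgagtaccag

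The Ccl9 window held 7 matches and the Ccl6 window held 0. In Ccl9, the NF-kB match began 35 bases before the start, on the minus strand, and overlapped a C/EBP match that began at -38. The AP-1 match lay at -53, a second C/EBP match at -75, and TATA box letters at -224, -94 and -92, of which the last 2 overlap. In Ccl3, a C/EBP match lay at -100, and a PU.1 match at -33 ran into an interferon regulatory factor match at -39. Of 32851 promoters of the same length, 8.46% held the NF-kB motif, 7.81% AP-1, 40.7% C/EBP, 28.3% PU.1, 8.56% the interferon regulatory factor motif and 13.6% the TATA box, so the more common of these letters are found in many genes. RefSeq promoter entries were matched for 6 of the 10 genes, also Pf4, Ccl8 and Ccl12. Among these 6, the NF-kB and AP-1 letters were found in Ccl9, whereas C/EBP letters were found in 3 and PU.1 letters in 4. In spite of their different matches, the Ccl6 and Ccl9 windows shared a stretch near the start: the best local alignment had 59 identical bases in 74 columns (79.7%), between bases -59 and 15 of Ccl6 and -18 and 49 of Ccl9. A match is a description of letters and not a binding site, and the part of these motifs in the levels of the genes was not tested.

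Ccl6 transcripts varied little between the numbers and were lower in both KO libraries, by an amount that did not pass the test after adjustment. In bulk RNA such as this, fewer cells of a type and less RNA per cell cannot be told apart. The gene gave counts of 17443 and 20184 for WT and of 8034 and 11266 for KO, so counting error is small beside the differences. Both KO libraries lay below both WT libraries, at 501 ± 99.8 CPM against 1170.2 ± 135 CPM (SD, n = 2 each). The fitted log2 fold change of -1.22 (SE 0.25) had a 95% confidence interval of -1.86 to -0.58, and edgeR's quasi-likelihood test gave a p of 0.00419, or 0.289 once adjusted. The KO library held 40.1% of the WT level within number 1 and 45.2% within number 2. E230016K23Rik, a gene on the other strand that overlaps Ccl6, had 7 to 16 counts per library. Whether counting used the strand is not given in the sources used here, and reads of the overlap could not be assigned between these genes.

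Ccl9 differed between the numbers far more than between the genotypes. It gave counts of 3297 and 50305 for WT and of 1215 and 28579 for KO, in the order of the numbers. The libraries numbered 2 were 15.5-fold higher than those numbered 1 in WT and 22.3-fold higher in KO, so the libraries of the genotypes overlapped. The mean was 1679 ± 2087 CPM for WT against 758 ± 979.9 CPM for KO (SD, n = 2 each), with an SD above the mean in both. The log2 fold change was -1.15 with a standard error of 1.65 and a 95% confidence interval of -5.33 to 3.04 (edgeR's quasi-likelihood test, adjusted p 0.965). Within number 1 the KO library held 32.1% of the WT level, and within number 2 it held 46.0%. The pooled value took either sign according to the library left out: it was 1.87 without WT replicate 2 and -4.70 without KO replicate 2.

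**Figure D1:**
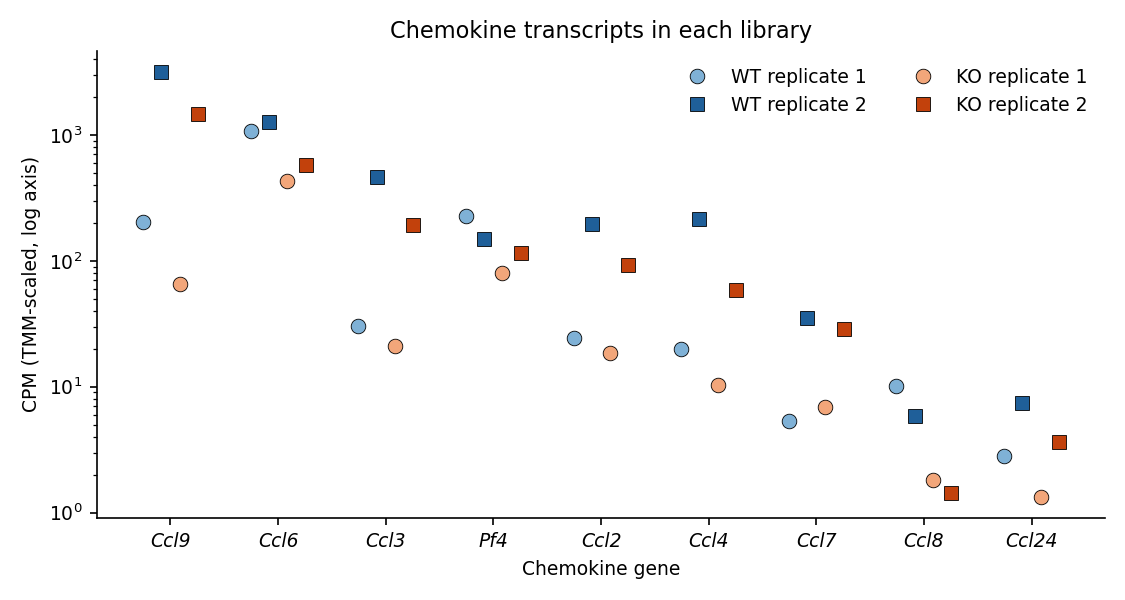
Level of 9 chemokine genes in each of the 4 libraries, in CPM on a log axis, with circles for number 1, squares for number 2, blue for WT and orange for KO. Ccl12, with 0 counts in KO, is not drawn. Squares lie above circles by over 4-fold for Ccl9, Ccl3, Ccl2, Ccl4 and Ccl7, while for Ccl6, Ccl8 and Pf4 both orange points lie below both blue points.

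Ccl3 and Ccl4, like Ccl9, differed more between the numbers than between the genotypes. They lie on chromosome 11 at 83647844 to 83649355 (Ccl3, ENSMUSG00000000982, minus strand) and 83662584 to 83664683 (Ccl4, ENSMUSG00000018930, plus strand), each with 3 exons. Ccl3 gave counts of 490 and 7385 for WT and of 389 and 3801 for KO. The library numbered 2 was 15.3-fold higher than that numbered 1 in WT and 9.25-fold higher in KO, which left the genotypes overlapping. Its level was 247 ± 306 CPM for WT against 107 ± 122 CPM for KO (SD, n = 2 each), and the log2 fold change was -1.21 (SE 1.45, edgeR's quasi-likelihood test, adjusted p 0.964). Within the numbers, the KO library of Ccl3 held 69.1% and 41.7% of the WT level.

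Ccl4 gave counts of 322 and 3413 for WT and of 194 and 1148 for KO. It was 10.8-fold higher in number 2 than in number 1 in WT and 5.60-fold higher in KO, with the KO library at 52.4% of WT within number 1 and 27.2% within number 2. After Ccl8, Ccl4 had the largest fitted difference of the 9 genes, a log2 fold change of -1.77, yet its 95% confidence interval ran from -4.97 to 1.43 (SE 1.26, edgeR's quasi-likelihood test, adjusted p 0.927). Both Ccl3 and Ccl4 therefore differed by less than the spread between replicates. Without WT replicate 2 the log2 fold change turned to 1.79 for Ccl3 and to 0.76 for Ccl4.

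The monocyte chemoattractants lie together on chromosome 11, between the start of Ccl2 at 82035571 and the end of Ccl8 at 82116799, all on the plus strand and with 3 exons each. Ccl2 (ENSMUSG00000035385), the main attractant of CCR2-bearing monocytes, gave counts of 399 and 3149 for WT and of 343 and 1824 for KO. It was 8.03-fold higher in number 2 than in number 1 in WT and 5.03-fold higher in KO. The genotypes overlapped, at 111 ± 122 CPM for WT against 55.5 ± 52.5 CPM for KO (SD, n = 2 each), with a log2 fold change of -1.0 (SE 1.13, edgeR's quasi-likelihood test, adjusted p 0.962) that turned to 1.14 without WT replicate 2. The KO library held 74.8% of the WT level of Ccl2 within number 1 and 46.9% within number 2. Gm17268, annotated over Ccl2 on the other strand, had 0 counts in the 4 libraries.

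Ccl7 (ENSMUSG00000035373, 82045712 to 82047525), the neighbour of Ccl2 and a ligand of CCR2 as well, was the exception in direction. It gave counts of 87 and 560 for WT and of 129 and 569 for KO. Within number 1 the KO library stood at 1.29 times the WT level, with a 95% interval of 0.976 to 1.71 from counting alone, and within number 2 at 0.823 times, with an interval of 0.731 to 0.926. The fitted log2 fold change was -0.18 (SE 1.01) with a 95% confidence interval of -2.75 to 2.40 (edgeR's quasi-likelihood test, adjusted p 0.990), and it changed sign in 7 of 14 alternatives, for example to 0.07 under a correction for gene length. Like its neighbour, Ccl7 was higher in number 2, by 6.55-fold in WT and 4.18-fold in KO.

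Ccl8 (ENSMUSG00000009185, 82115185 to 82116799), whose mouse product acts on CCR8, had the largest fitted difference between the genotypes among the 9 genes. It gave counts of 164 and 94 for WT and of 34 and 28 for KO, so both KO libraries lay well below both WT libraries. Its level was 8.0 ± 2.98 CPM for WT against 1.62 ± 0.284 CPM for KO (SD, n = 2 each). The fitted log2 fold change of -2.30 (SE 0.41) had a 95% confidence interval of -3.34 to -1.25, and edgeR's quasi-likelihood test gave a p of 0.00222, or 0.262 once adjusted. Within number 1 the KO library held 0.181 of the WT level (95% counting interval 0.121 to 0.262), and within number 2 it held 0.241 (0.152 to 0.371). Unlike Ccl2 and Ccl7, Ccl8 was not higher in number 2, and that library held 0.583 of the number 1 level in WT and 0.780 in KO.

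Ccl12 (ENSMUSG00000035352, 82101845 to 82103400), between Ccl7 and Ccl8 on the chromosome, was barely present. Its counts were 1 and 9 for WT and 0 and 0 for KO. It did not pass the filter on low counts and was not tested. Within number 1, the single count in WT is below the level that a count of 0 allows, so a difference was not detectable there. Within number 2, the WT library held 0.564 CPM against 0 in KO, where a count of 0 allows up to 0.152 CPM, and the 95% counting interval of the ratio of KO to WT ran from 0 to 0.410, below equal levels. That compares 1 library with 1 library.

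Ccl24 (ENSMUSG00000004814, chromosome 5, 135569937 to 135573049, minus strand) had the lowest FPKM of the 9 tested genes in every library. It gave counts of 46 and 119 for WT and of 25 and 72 for KO, and 25 was the lowest count of any tested member in any library. The KO library held 0.473 of the WT level within number 1 (95% counting interval 0.279 to 0.786) and 0.490 within number 2 (0.360 to 0.662), nearly the same fraction. Both libraries numbered 2 were higher, 2.63-fold in WT and 2.73-fold in KO, and the genotypes overlapped because KO replicate 2 lay above WT replicate 1. The log2 fold change was -1.04 (SE 0.68, edgeR's quasi-likelihood test, adjusted p 0.904), and it was -0.21 without WT replicate 2, -0.49 without KO replicate 1, -1.57 without WT replicate 1 and -1.94 without KO replicate 2.

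Pf4 (ENSMUSG00000029373, chromosome 5, 90772435 to 90773383, plus strand) was among the more abundant of the genes. It gave counts of 3647 and 2373 for WT and of 1496 and 2264 for KO, at 187 ± 53.6 CPM and 97.6 ± 24.5 CPM (SD, n = 2 each). Both KO libraries lay below both WT libraries, but by unequal amounts: the KO library held 35.7% of the WT level within number 1 and 77.2% within number 2. The fitted log2 fold change of -0.94 (SE 0.33) had a 95% confidence interval of -1.77 to -0.10, and edgeR's quasi-likelihood test gave a p of 0.0340, or 0.665 once adjusted. With 1 library left out it ran from -1.24 (without WT replicate 2) to -0.61 (without WT replicate 1). Platelets and megakaryocytes are the best known source of Pf4, and of 10 markers of these cells 1, Vwf, had enough counts to be tested, with counts of 434 and 313 for WT and of 919 and 687 for KO. Vwf is also an endothelial gene. Gp9 was at 0 in all 4 libraries, and Ppbp, which encodes the other major platelet chemokine, had at most 3 counts in any of them. The 10 markers summed to 20.01 to 27.8 CPM in WT and 35.3 to 50.7 CPM in KO, nearly all of it Vwf, and the part of such cells in the level of Pf4 was not tested.

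Taken as a list, 0 of the 9 tested chemokines were called in edgeR's quasi-likelihood test (fold change over 2 either way, adjusted p under 0.05), against 0% of the 12418 tested genes. At an unadjusted p under 0.05, 3 of the 9 were lower in KO (Ccl6, Ccl8 and Pf4), against 1.99% of all tested genes. In the same 3 genes both KO libraries lay below both WT libraries, against 16.9% of tested genes, and in 0 of the 9 the KO libraries were both above, against 20% of tested genes. The KO library was lower within both numbers in 8 of the 9, all but Ccl7, against 29% of tested genes. The median log2 fold change of the 9 genes was -1.15, with a range of -2.30 to -0.18, and that of all tested genes was 0.04. The median of the 9 depended on the library left out, and each such fit has unbalanced numbers between the genotypes. It turned to 0.76 without WT replicate 2 and was -0.49 without KO replicate 1. Without WT replicate 1 it was -1.83, and without KO replicate 2 it was -2.14. Within number 1 the medians were -1.07 for the chemokines and 0.11 for all tested genes, and within number 2 they were -1.12 and -0.0013.

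**Figure D2:**
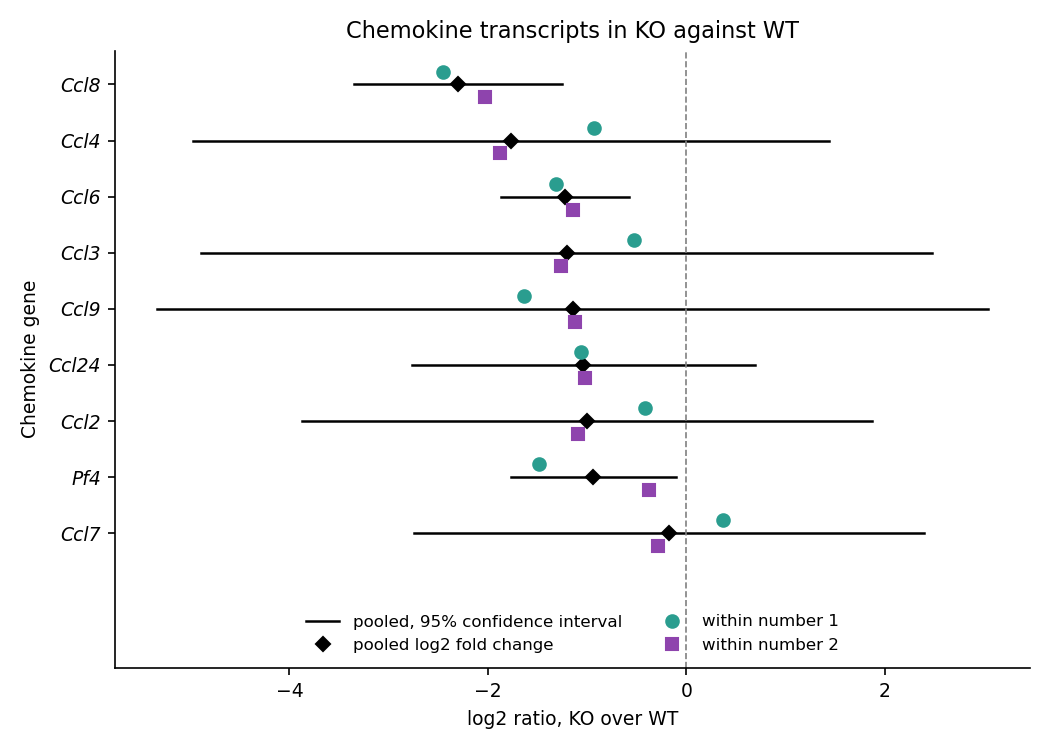
Log2 ratio of KO to WT for the 9 tested chemokine genes, as the pooled edgeR estimate with its 95% confidence interval (black) and as the ratio within number 1 (circles) and within number 2 (squares). The intervals of Ccl8, Ccl6 and Pf4 lie below 0, and 8 of the 9 genes have both ratios below 0, with Ccl7 at 0.37 in number 1 as the exception.

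The count of calls depended on the model. With the replicate number as a block, 5 of the 9 genes were called lower (Ccl4, Ccl6, Ccl8, Ccl9 and Ccl24), against 1.37% of all tested genes. With the block and a gene length correction together, 3 were called lower (Ccl6, Ccl8 and Ccl9), against 0.813% of all tested genes, while Ccl4 (log2 fold change -1.0) and Ccl24 (-0.88) both had an adjusted p of 0.132. The DESeq2 Wald test called 2 lower (Ccl6 and Ccl8), against 0.362%, and the edgeR exact test called 1 (Ccl8), against 0.242%. Ccl8 was thus called by all 4 of these alternatives, with adjusted p of 5.93e-10, 0.00817, 0.00183 and 0.0124, and Ccl6 by all but the edgeR exact test. With 2 libraries per genotype, the shared numbers do not establish that the libraries were paired.

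The difference between the numbers was then examined by itself. Both libraries numbered 2 lay above both numbered 1 for Ccl2, Ccl3, Ccl4, Ccl7, Ccl9 and Ccl24, 6 of the 9 genes, against 25.2% of tested genes. For 5 of them, Ccl2, Ccl3, Ccl4, Ccl7 and Ccl9, the difference was over 4-fold in both genotypes, against 1.81% of tested genes. The median log2 ratio of number 2 to number 1 over the 9 genes was 2.71 in WT and 2.06 in KO, with values from -0.77 to 3.96 in WT and from -0.35 to 4.48 in KO. Over all tested genes the medians were -0.003 and -0.0042. Ccl6, Ccl8 and Pf4 stood apart from the other members, where the log2 ratios were 0.24, -0.77 and -0.59 for WT and 0.41, -0.35 and 0.52 for KO.

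**Figure D3:**
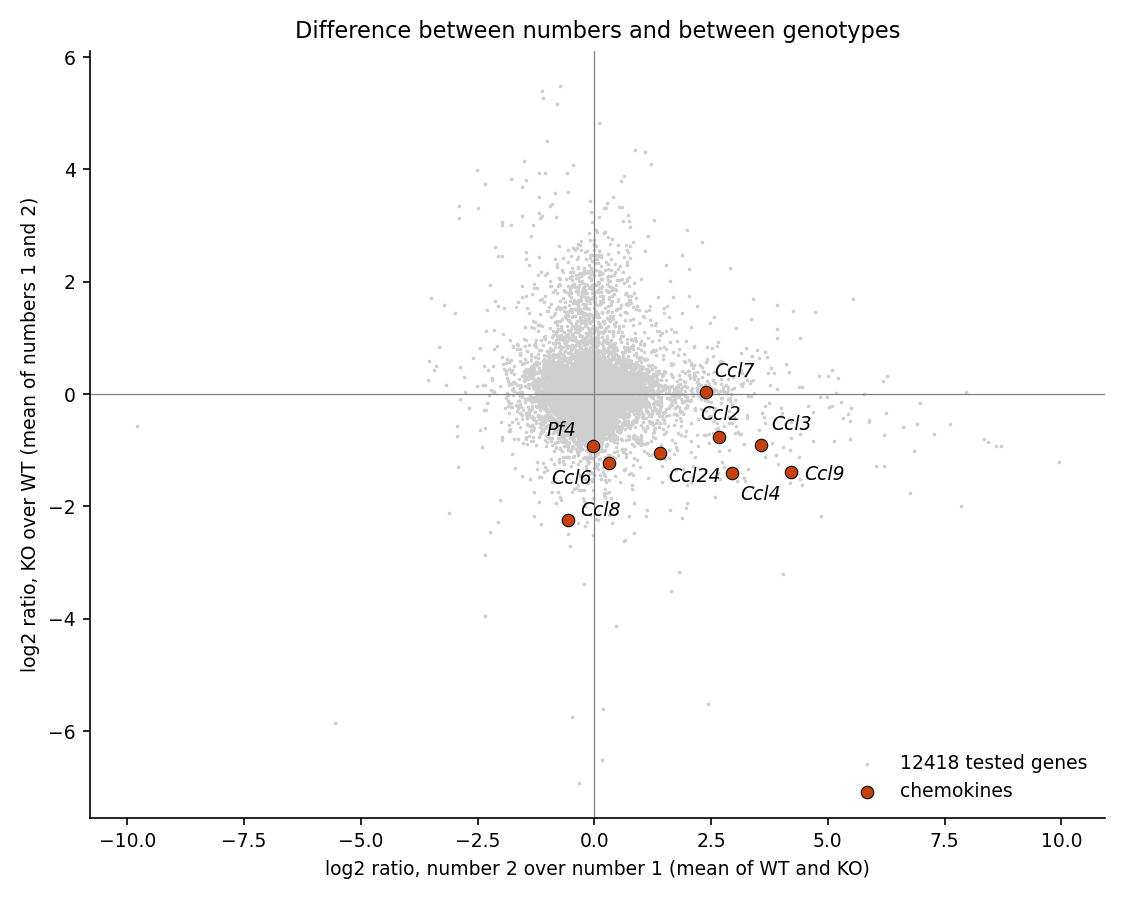
For each tested gene, the log2 ratio of number 2 to number 1 (mean of both genotypes, horizontal axis) against the log2 ratio of KO to WT (mean of both numbers, vertical axis), with the 9 chemokine genes in orange and all 12418 tested genes in grey. Ccl9, Ccl3, Ccl4, Ccl2 and Ccl7 lie far to the right, Ccl6, Ccl8 and Pf4 lie near or left of 0 on the horizontal axis, and all but Ccl7 lie below 0 on the vertical axis.

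The libraries numbered 2 were higher in other inflammatory transcripts too. Of 13 tested inflammatory cytokine genes, 9 were over 4-fold higher in number 2 in both genotypes, against 1.81% of all tested genes. Among the 9 was Tnf, with counts of 122 and 21261 for WT and of 98 and 14019 for KO. Of 24 NF-kB and AP-1 factor genes, 8 were over 4-fold higher in this way, among them Nfkbia, the NF-kB inhibitor that NF-kB itself induces. Nfkbia gave counts of 522 and 8490 for WT and of 475 and 7640 for KO. Another 3 of the 24 lay lower in both libraries numbered 2, a count given without its share over all tested genes. Atf3 was 1 of these 3, with counts of 8553 and 5108 for WT and of 8480 and 8815 for KO (log2 ratio of number 2 to number 1 of -0.72 and -0.02). Cebpb was higher in number 2 by less than 4-fold, at log2 ratios of 1.17 for WT and 1.34 for KO. Of 13 tested chemokine genes outside the 10, 7 were over 4-fold higher in number 2 in both genotypes. The part of these transcripts in the levels of the 10 chemokines was not tested, and nothing in the labels marks what the numbers stand for.

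The levels of the genes can be ordered only per length. By the mean of the deposited FPKM the order in WT was Ccl9 (491 ± 609), Ccl6 (436 ± 46.3), Ccl3 (304 ± 376), Ccl4 (167 ± 196), Pf4 (130.5 ± 38.7), Ccl2 (54.9 ± 60.2), Ccl7 (23.8 ± 24.7), Ccl8 (14.9 ± 5.66), Ccl24 (3.07 ± 1.93) and Ccl12 (0.328 ± 0.372; SD, n = 2 each). Neighbours differed by more than the larger of their SDs only from Pf4 to Ccl2, from Ccl8 to Ccl24 and from Ccl24 to Ccl12. In KO the FPKM order was the same except that Pf4 (75.1 ± 13.1) stood above Ccl4 (52.8 ± 49.9), and neighbours differed beyond their SDs only from Ccl7 (22.8 ± 18.6) to Ccl8 (3.38 ± 0.851) and down from there. The single libraries were ordered by their number and not as these means. In WT replicate 1 the order began with Ccl6 (403), Pf4 (158), Ccl9 (60.2) and Ccl3 (37.6), and in KO replicate 1 with Ccl6 (189), Pf4 (65.8), Ccl3 (30.4) and Ccl9 (22.5). In WT replicate 2 it began with Ccl9 (922), Ccl3 (569.6), Ccl6 (468) and Ccl4 (305.5), and in KO replicate 2 with Ccl9 (449), Ccl3 (251), Ccl6 (224) and Ccl4 (88.1).

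The length behind these FPKM values was not that of the main transcript for every gene. Here the main transcript is the annotated transcript whose name sorts first, chosen without regard to its expression. Ccl3, Ccl4, Ccl7 and Ccl8 have 1 annotated length, and the length implied by count and FPKM equalled it. For Ccl2 and Pf4 the implied length was the sum of all annotated transcripts, and for Ccl6, Ccl9, Ccl12 and Ccl24 it lay between the length of the main transcript and that sum. A longer length lowers the FPKM of genes with several transcripts, such as Ccl2 (2.35 times), Pf4 (2.31 times) and Ccl6 (1.77 times). On the scale of CPM per kilobase of the main transcript, the mean of Ccl6 stood first in both genotypes, at 813 ± 93.9 in WT and 348 ± 69.3 in KO, ahead of Ccl9 at 559 ± 694 and 252 ± 326 (SD, n = 2 each). Ccl6 was first in the libraries numbered 1, whereas Ccl9 was above it in those numbered 2, at 1049.5 against 879 in WT and 483 against 397 in KO. On that scale Pf4 reached 318 ± 91.2 in WT, next to Ccl3 at 322 ± 399.7.

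On the same per-kilobase scale the shares of Ccl6 and Ccl9 among the chemokine transcripts differed more between the numbers than between the genotypes. Ccl6 made up 56.4% of the sum of the 10 genes in WT replicate 1 and 55.8% in KO replicate 1, but 25.7% in WT replicate 2 and 25.3% in KO replicate 2. Ccl9 made up 5.10% and 4.04% in the libraries numbered 1 and 30.7% in each of those numbered 2. Pf4 made up 28.9% and 25.5% in the libraries numbered 1 and 7.41% and 12.4% in WT replicate 2 and KO replicate 2, so that within number 2 its share also differed between the genotypes. The sum itself was 1324 and 3416 CPM per kilobase in WT and 536 and 1571 in KO, lower in KO within each number.

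**Figure D4:**
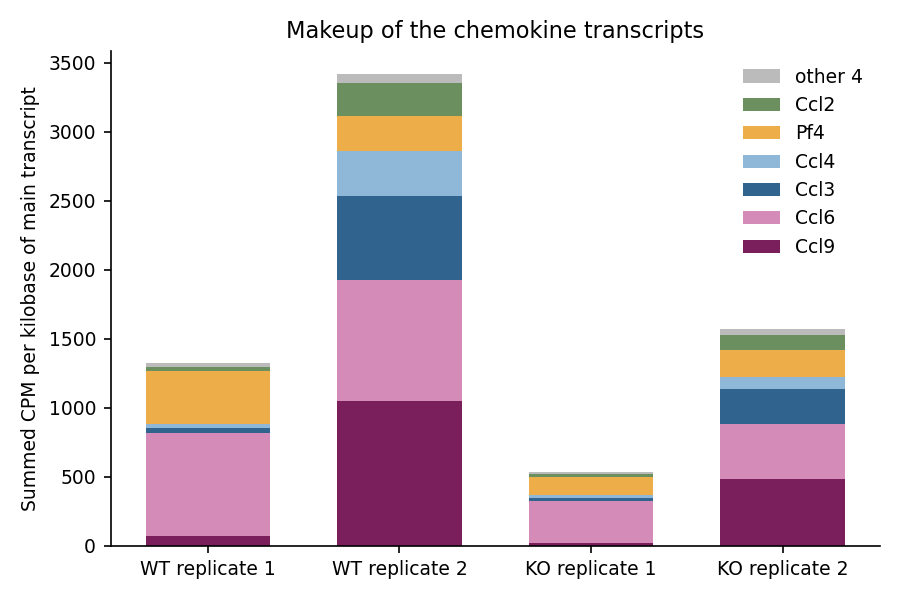
Stacked levels of the 10 chemokine genes in each library, in CPM per kilobase of the main transcript, from 0. The bars of WT replicate 2 and KO replicate 2 are taller and hold a large Ccl9 share (30.7% each), while Ccl6 and Pf4 make up most of the bars of the libraries numbered 1.

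Genes with the profile most like that of a chemokine were sought for the 3 members with the widest range over the libraries, Ccl9, Ccl3 and Ccl4. Likeness was the root mean square difference of centred log2 CPM over the 4 libraries, among 9418 genes, and it is a description only. Nearest to Ccl9 were Gbp6 (0.227), H2-M2 (0.232) and Bcl2a1a (0.252). Nearest to Ccl3 were Tnfsf9 (0.159), Gbp2 (0.25) and Trex1 (0.266), and nearest to Ccl4 were Mx1 (0.117), Ifit1 (0.161) and AW112010 (0.287). Mx1, for example, gave counts of 22 and 237 for WT and of 11 and 77 for KO, close to a fixed fraction of Ccl4 in each library. Gbp6 and Bcl2a1a have near-identical copies in the genome, so their counts are uncertain.

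The receptors of the chemokines were read from the same libraries. Of 9 receptor genes 6 were tested, 0 were called, and in 3, among them Ccr1 and Ccr3, both KO libraries lay below both WT libraries, against 16.9% of all tested genes. The median log2 fold change of the 6 was -0.67. Ccr1, the receptor of Ccl6, Ccl9 and Ccl3, gave counts of 2541 and 2941 for WT and of 1812 and 2137 for KO (log2 fold change -0.73, SE 0.23, edgeR's quasi-likelihood test, adjusted p 0.592). Ccr2, the receptor of Ccl2 and Ccl7, gave counts of 166 and 49 for WT and of 134 and 30 for KO. Unlike its ligands, Ccr2 was lower in both libraries numbered 2. Ackr2, a scavenger of inflammatory CC chemokines, had 0, 2, 0 and 0 counts, and Ccrl2, an atypical receptor, gave counts of 2704 and 10520 for WT and of 2699 and 10536 for KO.

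Among the 28 other chemokine genes, 13 were tested and 0 were called, and their median log2 fold change was -0.37. Ccl5 (WT counts 10 and 301, KO counts 13 and 168), Cxcl2 (25 and 11011 against 17 and 6385), Cxcl1 (54 and 9388 against 61 and 2022), Cxcl10 (11 and 180 against 28 and 252) and Cxcl16 (795 and 4288 against 678 and 4131) were all higher in number 2. For these genes the genotypes overlapped, as for Ccl2, Ccl3, Ccl4 and Ccl9. Cxcl5 and Cxcl12, named after their values were seen, were higher in KO, with KO above WT in both pairs of libraries at 18 and 106 against 238 and 669 counts for Cxcl5 and 24 and 16 against 151 and 151 counts for Cxcl12. They were the 2 of the 13 with both KO libraries above both WT libraries, against 20% of all tested genes. In 2 others both KO libraries lay below, against 16.9%. Cxcl5 and Cxcl12 were also the 2 of the 13 at an unadjusted p under 0.05, a count given without its share over all tested genes.

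**Figure D5:**
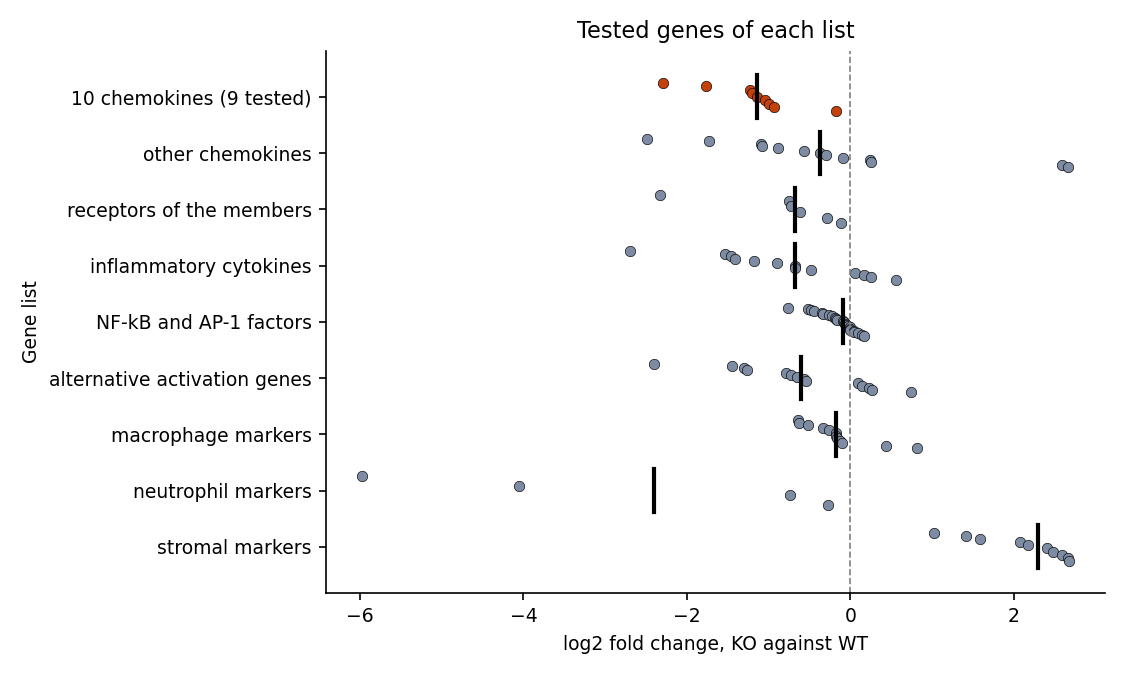
Log2 fold change of KO against WT (edgeR) for each tested gene of 9 lists, with 1 point per gene, a black bar at the median of the list and the chemokines in orange. The chemokine median is -1.15 (0.76 without WT replicate 2), that of the receptors -0.67, that of the NF-kB and AP-1 factors -0.09 and that of the stromal markers 2.29.

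Markers of other cells were read in the same libraries, and 0 of them were called. Over all tested genes, 16.9% lay lower and 20% higher in both KO libraries. Of 10 stromal markers, 9 were higher in each KO library than in either WT library, and the 10 summed to 80.5 to 93.7 CPM in WT and 332 to 357 CPM in KO. Of 10 neutrophil markers, 4 were tested and 3 lay lower in both KO libraries, with sums of 25.7 to 30.0 CPM in WT and 9.22 to 12.0 CPM in KO, and with Mpo and Elane at 0 in every library. Of 8 mast cell and basophil markers, 4 were tested and 3 lay lower, with sums of 41.2 to 43.2 CPM against 21.1 to 25.1 CPM and with Mcpt8 at 0. Of 6 eosinophil markers, 2 were tested and both lay lower, with sums of 12.7 to 13.7 CPM against 8.99 to 9.17 CPM and with Prg2, Epx and Ear6 at 0. The 5 tested of 6 B cell markers all lay lower, with sums of 43.1 to 47.0 CPM against 23.4 to 27.0 CPM. Of 10 monocyte markers, 4 lay lower and 2 higher in both KO libraries, with sums of 424 to 477 CPM against 471 to 505 CPM. Of 8 T and NK cell markers 0 had enough counts to be tested, and of 11 dendritic cell markers 5 had, with 1 lower in KO. The part of these cells in the difference of Ccl6, Ccl8 and Pf4 was not tested.

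Genes of alternative macrophage activation, a state induced by type 2 cytokines in which Ccl24 is also known to be made, were set beside the chemokines. Of 14 tested genes, 9 lay lower in both KO libraries, against 16.9% of all tested genes, 0 were called, and the median log2 fold change was -0.61. At an unadjusted p under 0.05 in edgeR's quasi-likelihood test, 5 of the 14 were lower and 0 higher. The share of all tested genes lower at that p was 1.99%. Clec7a, the receptor for fungal beta-glucan, gave counts of 20974 and 17110 for WT and of 14639 and 12671 for KO (log2 fold change -0.73, SE 0.23, edgeR's quasi-likelihood test, adjusted p 0.595). Mrc1, the mannose receptor, gave counts of 2669 and 3609 for WT and of 3831 and 4166 for KO, with a log2 fold change of 0.09. Of the 9 genes for proteins that control decay of AU-rich mRNAs, a feature of several chemokine transcripts, 0 lay apart between the genotypes. That stands against 16.9% lower and 20% higher in both KO libraries over all tested genes. The median log2 fold change of the 9 was 0.12.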

How the data were processed

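Total RNA of cultured macrophages (2 WT and 2 KO libraries) was sequenced on an Illumina NovaSeq. Per the study's methods, reads were filtered with Seqtk, aligned with HISAT2 and counted with StringTie (versions 2.0.4 and 1.3.3b in the submitters' processing notes). The authors deposited raw fragment counts per gene and the FPKM values made from them. The submitters' notes name mm39, but 27682 of 34267 shared gene identifiers, all 10 chemokines included, had the start, end and strand of GRCm38 (GENCODE M21), so positions are on that build. Strandedness of counting and donor ages are not given in the sources used here.

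edgeR 4.0.16 (R 4.3.3) was run on the counts. Of 17991 genes with a count, filterByExpr (minimum count 10, minimum total count 15) left 12418. TMM factors were 0.942 to 1.11. Genotype was the term of the quasi-likelihood fit (two-sided), Benjamini-Hochberg adjustment ran over all tested genes, and calls needed an adjusted p under 0.05 and a log2 fold change over 1 in size. CPM use TMM-scaled totals, and log2 ratios within a number had 0.5 counts added. Alternatives used DESeq2 1.42.0 and limma 3.58.1, and the per-kilobase scale was added after seeing the data. Counting intervals are exact binomial (95%) and cover counting error only. Where a symbol named several genes, the one with most counts was kept. The code was tested on simulated data. Any pair of libraries differed by far more than counting error (chi-square over its degrees of freedom was 23.1 to 126). No sample was left out.

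The members and lists were chosen with earlier results of these data known. Named were all 10 members, G3bp1, up to 3 genes of highest mean CPM per list, Ccl5, Cxcl10, Cxcl16, Cxcl2, Ccr1, Ccr2, Ackr2 and the profile neighbours. Some genes that this rule names are not reported here. Any other gene was chosen after its values were seen.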

Additional observations from a re-analysis of the deposited data

How the results depend on the processing

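The chemokines called numbered 0 under a mean CPM of at least 1, no filter, DESeq2 size factors, gene length correction, no minimum fold change, limma on FPKM with either pseudocount and each library left out. They numbered 5 with the replicate block (664 of all tested genes), 3 with the replicate block and gene length correction (368), which lost Ccl4 and Ccl24, 2 with the DESeq2 Wald test (181) and 1 with the edgeR exact test (174). Over all tested genes limma on log2(FPKM + 0.1) called 2, and fits with 1 library left out called 0 to 1, with the lone library assumed to vary like the others. The median log2 fold change of the chemokines ran from -2.14 to 0.76 when 1 library was left out, and it was 0.76 without WT replicate 2. That fit reversed Ccl2 (1.14), Ccl3 (1.79), Ccl4 (0.76), Ccl7 (1.71) and Ccl9 (1.87). Ccl7 also reversed with the replicate block (0.0045), gene length correction (0.070), both (0.37), limma (0.17 and 0.19) and without KO replicate 1 (0.52). With 1 library left out the values ran from -2.60 to 1.14 (Ccl2), -3.57 to 1.79 (Ccl3), -3.50 to 0.76 (Ccl4), -1.56 to 1.71 (Ccl7), -4.70 to 1.87 (Ccl9), -1.94 without KO replicate 2 to -0.21 without WT replicate 2 (Ccl24) and -1.24 without WT replicate 2 to -0.61 without WT replicate 1 (Pf4). Leaving out 1 library also leaves the numbers unbalanced between the genotypes, and the part of this in the shifts was not tested. Of 126 alternative values for single chemokines, 104 kept their direction and side of the threshold, 11 passed it and 11 reversed, and Ccl6, Ccl8, Ccl24 and Pf4 kept their direction in all 14 alternatives each.

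Same-numbered libraries deviated together from their genotype means (correlation over genes 0.692), but 2 pairs do not establish pairing. In the block fit Ccl2 and Ccl3 and Pf4 also had adjusted p under 0.05 (0.0174, 0.00283 and 0.00194), short of the minimum fold change. With the block and the gene length correction together, these adjusted p were 0.167, 0.368 and 0.126. Precision is limited by 2 libraries per genotype, and for Ccl8, Ccl12 and Ccl24 also by low counts.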
